A study of Mus musculus with 54 samples.

Results

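The genes described here are 39 genes of neural progenitors and neurons, taken by name. The rule that picks them uses no measured value, but the list was drawn up with earlier results of these data known. A gene was included where a probe set of the array carries its symbol, and the probe set with the highest mean over all arrays stands for it. On this rule 37 of the 39 genes were measured, of 14104 genes in all, and Pax2 and Pax5 were not analysed here. The 37 fall into 15 progenitor and patterning genes, 6 proneural and POU factors and 16 neuronal structural genes. No filter on low values was applied, so all 37 entered every comparison.

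Expression was measured in male CGR8 mouse embryonic stem cells (ESCs) of strain 129, in 3 lines. The KD line carries an shRNA against Mageb16, a gene of the melanoma antigen family, the SCR line carries a scrambled shRNA, and the WT line carries neither. KD and SCR cells were selected with puromycin and kept as stable polyclonal lines, so that effects of the shRNA and of the single line cannot be told apart. RNA was taken from undifferentiated cells (day 0) and from embryoid bodies (EBs), aggregates made by hanging drop in which no lineage was directed, at days 2, 4, 12, 15 and 22. The lines and days make 18 groups, each with 3 arrays (Affymetrix, mouse). The labels do not say whether these came from separate cultures, so that the p-values measure the spread between arrays, which may be technical. Values are RMA signals on the log2 scale, and 1 log2 unit is a 2-fold difference. A gene was called higher or lower at a limma adjusted p under 0.05 together with at least a 2-fold difference. Days 12, 15 and 22 together are called late EBs, with 9 arrays a line.

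The Mageb16 signal was 7.0 to 7.11 on the KD arrays at day 0, against 10.03 to 10.09 in SCR and 9.93 to 9.99 in WT cells. In 22-day EBs it was 6.89 to 7.43 in KD, against 9.36 to 9.75 in SCR and 9.31 to 9.39 in WT. Arrays of a group correlated at 0.986 to 0.997. The third array lay between the other 2 for 28.34% (22-day KD) to 55.17% (22-day SCR) of probe sets. For the first array this was 16.59% to 37.14%, and for the second 22.42% to 30.09%. Whether the third array is independent of the others was not tested. If it is not, the spread between arrays is understated and the p-values are too small. In late KD EBs 1423 of all genes were higher and 688 lower than in SCR EBs, and in late SCR EBs 490 were higher and 343 lower than in WT EBs. The lower quartile of an array lay between 4.23 and 4.51 log2, and differences between signals below it are not exact in size.

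Neural progenitors of the early neural tube divide under the control of SOX and PAX factors and of Notch signalling, in which the ligand encoded by Dll1 on a cell induces the repressor Hes5 in its neighbour. Proneural bHLH factors, among them the neurogenins and NEUROD proteins, then drive exit from division and neuronal fate. Young neurons make tubulin beta-3, doublecortin, neurofilaments, axon growth proteins and synaptic vesicle proteins. In embryoid bodies without directed lineage, such cells arise beside mesodermal and endodermal ones.

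The promoters of 27 of the 37 genes were found in RefSeq (build GRCm38.p6), and the 250 bases before the start were searched on both strands for letters known from neural gene control. The proneural E-box CATCTG was found for 3 genes (Elavl4, Fabp7 and Rtn1), in 5 of the 39 windows of the 27 genes and in 14.4% of all 32851 windows. GTGGGAA, bound by RBPJ, the DNA-binding partner of Notch, was found for Hes5 alone, in 1 of the 39 windows, and in 5.42% of all windows. TCAGCACC, a piece of the element bound by the neuronal repressor REST, was found for Tubb3 alone, in 1 of the 39 windows, and in 1.32% of all windows. A match describes the letters and is not evidence of binding. Windows that hold a match are shown for 3 genes whose courses differed between the lines, with the matches in capitals, on either strand. The genes are a Notch target, a progenitor gene and a neuronal structural gene. They are Hes5 (chr4:154960673-154960922, + strand, 2 matches, beginning 226 and 83 bases before the start), Fabp7 (chr10:57784673-57784922, + strand, 1 match, 118 bases before the start) and Tubb3 (chr8:123411303-123411552, + strand, 1 match, 121 bases before the start).
Hes5: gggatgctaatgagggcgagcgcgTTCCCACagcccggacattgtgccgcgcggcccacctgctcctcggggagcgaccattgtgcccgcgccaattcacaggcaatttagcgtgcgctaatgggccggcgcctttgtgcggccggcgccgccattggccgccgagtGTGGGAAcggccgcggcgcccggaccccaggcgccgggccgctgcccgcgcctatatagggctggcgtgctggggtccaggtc
Fabp7: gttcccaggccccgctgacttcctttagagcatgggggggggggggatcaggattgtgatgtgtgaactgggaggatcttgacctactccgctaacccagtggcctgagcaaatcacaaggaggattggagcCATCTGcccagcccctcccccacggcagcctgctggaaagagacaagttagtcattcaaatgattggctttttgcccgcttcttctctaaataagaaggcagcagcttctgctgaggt
Tubb3: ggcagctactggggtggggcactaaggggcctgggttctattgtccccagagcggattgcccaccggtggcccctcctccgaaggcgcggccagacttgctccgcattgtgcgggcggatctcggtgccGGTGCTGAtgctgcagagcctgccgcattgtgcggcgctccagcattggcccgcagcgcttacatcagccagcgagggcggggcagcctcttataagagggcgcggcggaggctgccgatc

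Late KD EBs were compared with late SCR EBs to see which neural genes differ with the shRNA against Mageb16. Of the 37 genes 19 were lower in KD EBs and 0 were higher, where 4.88% of all genes were lower and 10.1% higher. With no minimum fold, 34 of the 37 differences were below 0. The median difference was -1.02 log2, beside -0.02 over all genes. Progenitor and patterning genes made up 9 of the 19 (of 15, median -1.28), proneural and POU factors 5 (of 6, median -1.24) and neuronal structural genes 5 (of 16, median -0.84). The difference between these groups of genes was not tested. In bulk RNA, fewer neural cells and less RNA in each cell cannot be told apart. With a test against 1.2-fold in place of the 2-fold minimum, 32 genes were lower, and the share of all genes on this test was not counted.

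**Figure D1:**
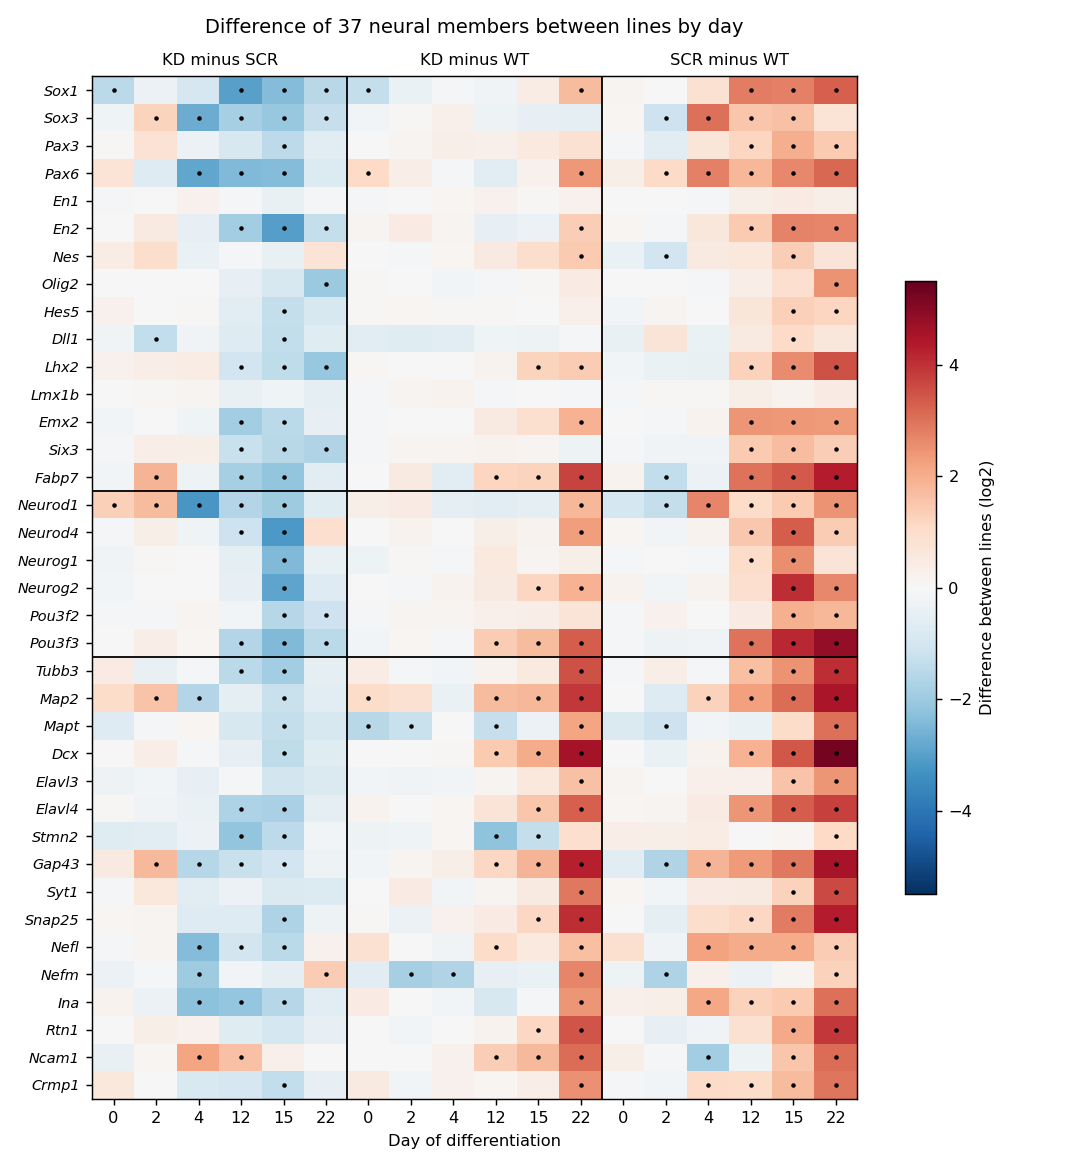
Log2 difference between lines for the 37 neural genes (rows, with black lines between progenitor and patterning, proneural and POU, and neuronal structural genes) on each day of differentiation (columns), as KD minus SCR, KD minus WT and SCR minus WT. Dots mark differences past the threshold, 28 of them lower in KD than SCR EBs at day 15, and 31 higher in SCR than WT EBs at day 22.

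Sox1, one of the first factors of the neural plate, had the largest difference. Its signal on the 9 late arrays was 3.68 to 5.71 (median 5.01) in KD, against 6.28 to 7.55 (median 7.26) in SCR EBs. No KD array reached the lowest SCR array. The difference was -2.30 log2 (SE 0.165, adjusted p = 6.17e-16, 4.92-fold lower in KD). Sox3, a related SoxB factor, had a signal of 5.50 to 6.11 (median 6.01) in KD, against 6.94 to 8.0 (median 7.45) in SCR EBs. These ranges too were apart, with a difference of -1.72 log2 (SE 0.0897, adjusted p = 2.12e-20).

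Pax6, which patterns the forebrain, eye and spinal cord, was at 4.75 to 6.78 (median 5.66) in late KD, against 7.01 to 8.17 (median 7.66) in SCR EBs. KD and SCR arrays did not overlap (difference -1.86 log2, SE 0.0944, adjusted p = 8.67e-21). Of its other, dimmer probe sets 1 was at -1.24 and 1 at -0.13, and Pax6 was at -1.07 when its probe sets were averaged. The midbrain and hindbrain factor En2 was at 3.48 to 5.43 (median 4.0) in KD, against 5.43 to 7.29 (median 6.91) in SCR EBs. The highest KD array, at day 22, met the lowest SCR array, at day 12, and the difference was -2.10 log2 (SE 0.111, adjusted p = 3.34e-20).

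Lhx2, a factor of the forebrain and eye field, was at 5.0 to 5.96 (median 5.74) in late KD, against 6.57 to 7.70 (median 7.13) in SCR EBs, without overlap. Six3, of the anterior forebrain, was at 4.02 to 4.86 (median 4.41) in KD, against 4.94 to 6.72 (median 5.82) in SCR EBs, also without overlap. Their differences were -1.51 (SE 0.122, adjusted p = 1.92e-14) and -1.46 log2 (SE 0.115, adjusted p = 1.2e-14). Fabp7, the fatty acid-binding protein of radial glia, spanned 7.88 to 12.16 (median 10.07) in KD, against 10.40 to 12.79 (median 12.22) in SCR EBs. Here the lines overlapped, since the KD signal was 11.80 to 12.16 at day 22, and the difference over the late days was -1.52 log2 (SE 0.181, adjusted p = 9.61e-10).

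The forebrain factor Emx2 (-1.28) and the oligodendrocyte and motor neuron factor Olig2 (-1.12) were the other progenitor genes lower in late KD EBs. Olig2 was just under the 2-fold minimum without replicate 2 of the 22-day SCR EBs, at -0.99. The neural crest and dorsal factor Pax3 (-0.99), Hes5 (-0.94) and Dll1 (-0.92) lay just under the minimum. Nes, the intermediate filament of progenitors, had a difference of 0.09 log2 (SE 0.132, adjusted p = 0.567), with 7.06 to 7.48 in KD and 6.48 to 7.72 in SCR EBs. En1 and Lmx1b stayed dim, at 2.06 to 2.49 and 3.85 to 4.68 in late KD EBs, against 2.33 to 2.78 and 4.15 to 4.74 in SCR EBs. Hes5 has a second, dimmer probe set, which was lower by more, at -2.03 log2 over the late days.

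Among the factors that drive neuronal fate, Pou3f3, a POU factor of the developing cortex, was at 5.28 to 7.86 (median 6.63) in late KD, against 7.48 to 9.48 (median 8.98) in SCR EBs. KD arrays overlapped SCR arrays only across days, and the difference was -1.83 log2 (SE 0.105, adjusted p = 4.16e-19). Neurod1 (-1.40), Neurog2 (-1.35), Neurod4 (-1.12) and Neurog1 (-1.10) were lower as well, the last just under the minimum without replicate 1 of the 12-day KD EBs (-0.99). Pou3f2 was at -0.96.

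At day 15 all 6 of these factors were lower in KD than SCR EBs (median -2.42 log2). Neurog2, which starts neuronal differentiation in the cortex, was at 4.32, 4.81 and 5.17 in 15-day KD EBs, against 7.68, 7.63 and 7.72 in SCR EBs and 3.37, 3.84 and 3.57 in WT EBs. Neurod4 was at 3.68, 2.93 and 3.55 in KD, against 6.41, 6.45 and 6.72 in SCR and 3.15, 3.09 and 3.31 in WT EBs. The differences between KD and SCR were -2.91 log2 for Neurog2 (SE 0.249, adjusted p = 3.97e-13) and -3.14 for Neurod4 (SE 0.247, adjusted p = 3.63e-14). In 22-day EBs Neurod4 was at 4.89, 4.53 and 5.38 in KD and at 2.84, 4.57 and 4.61 in SCR EBs. SCR EBs thus peaked at day 15, with 1 array at day 22 near the level of day 0, while KD EBs were at their highest at day 22. In SCR EBs 4 of the 6 factors had their highest mean at day 15, and in KD EBs 4 of 6 at day 22. Among the latter, Pou3f2 ranged over only 0.65 log2 between days.

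Of the 16 neuronal structural genes, Ina, an intermediate filament of neurons (-1.44), Elavl4, an RNA-binding protein of postmitotic neurons (-1.33), Tubb3 (-1.31), the microtubule regulator Stmn2 (-1.25) and Mapt, the tau protein (-1.02), were lower in late KD EBs. The call for Mapt depended on single arrays: it was under 2-fold when any of 7 of the 18 arrays was left out, at -0.95 to -1.0, and at -0.71 when its probe sets were averaged. Map2 (-0.78), Dcx (-0.84), Gap43 (-0.84), Snap25 (-0.89) and Crmp1 (-0.91) were below 0 and under the minimum. Elavl3, a relative of Elavl4 (-0.64), and Syt1, the calcium sensor of synaptic vesicles (-0.62), were not called either. Nefm, the medium neurofilament chain, was at 0.25 and the adhesion molecule Ncam1 at 0.65.

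**Figure D2:**
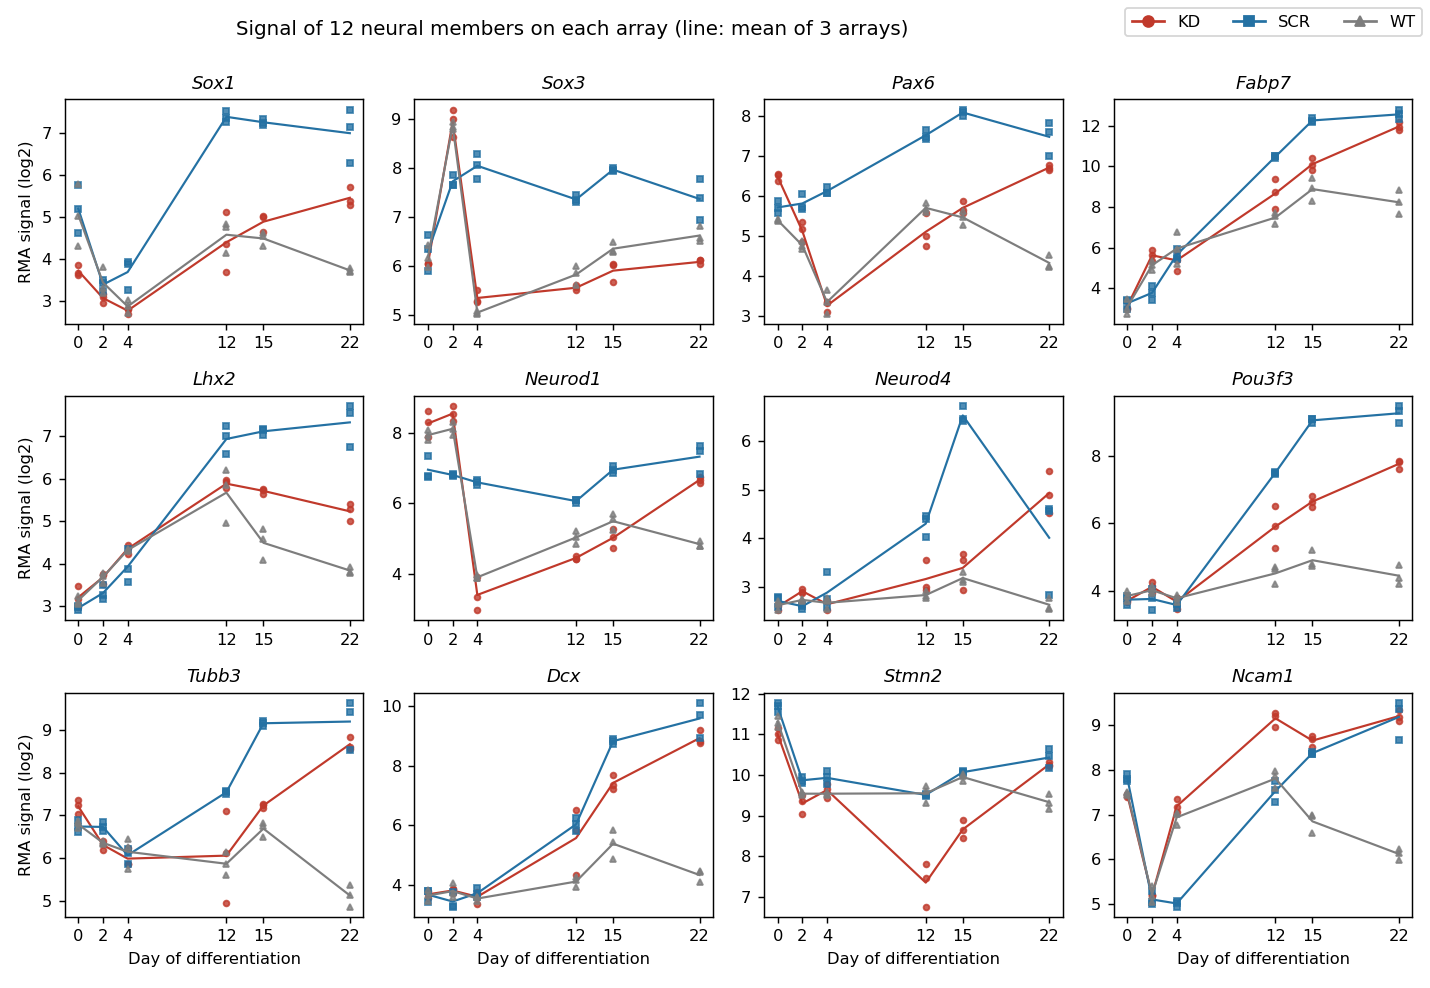
RMA signal (log2) of 12 neural genes against day of differentiation, with a point for each array of KD (red circles), SCR (blue squares) and WT (grey triangles) and lines through the means of 3 arrays. Sox1 and Lhx2 stay apart in KD and SCR EBs up to day 22, while Tubb3, Dcx and Stmn2 come close.

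By single day the count of genes lower in KD than SCR EBs was 17 of 37 at day 12 (5.47% of all genes), 28 at day 15 (6.16%) and 8 at day 22 (4.61%). One gene was higher at day 12 (Ncam1, with 8.66% of all genes higher), 0 at day 15 (10.3%) and 1 at day 22 (Nefm, 11.9%). Progenitor genes were lower in 8, 11 and 6 of 15 cases at days 12, 15 and 22. The proneural and POU factors were lower in 3, 6 and 2 of 6, and the structural genes in 6, 11 and 0 of 16. The 8 genes lower at day 22 were Sox1 (-1.54), Sox3 (-1.28), En2 (-1.33), Olig2 (-2.04), Lhx2 (-2.09), Six3 (-1.64), Pou3f2 (-1.13) and Pou3f3 (-1.50), all of them transcription factors. Only 1 of the 8, Sox3, was among the brightest 60% of probe sets, where it was still called, and the others were dimmer. Without replicate 1 of the 22-day SCR EBs, which was the lowest of the 3 arrays for most of the 37 genes, 13 genes were lower at day 22.

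Olig2 was at 2.95, 3.17 and 2.96 in 22-day KD EBs, against 4.03, 5.82 and 5.36 in SCR and 2.60, 2.55 and 2.60 in WT EBs. It was thus near its undifferentiated level (2.50 to 2.71 in KD cells) in the KD line and well above it in SCR EBs alone. Lhx2 was at 5.0, 5.29 and 5.41 in 22-day KD EBs, against 6.73, 7.70 and 7.54 in SCR and 3.92, 3.81 and 3.78 in WT EBs. The KD values lay between those of SCR and WT. Against SCR EBs the differences were -2.04 log2 for Olig2 (SE 0.225, adjusted p = 3.17e-10) and -2.09 for Lhx2 (SE 0.211, adjusted p = 3.37e-11). Nefm, the gene that was higher, was at 6.08, 6.77 and 5.59 in 22-day KD EBs, against 4.34, 5.10 and 4.78 in SCR and 3.86, 3.44 and 3.11 in WT EBs (KD minus SCR 1.41 log2, SE 0.279, adjusted p = 4.07e-05). Among the 16 structural genes the 22-day differences ran from -0.88 to 1.41 log2 with a median of -0.47, and 13 were below 0.

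Tubb3 was at 4.95, 7.10 and 6.13 in 12-day KD EBs, against 7.57, 7.55 and 7.50 in SCR EBs. At day 22 it was at 8.54, 8.83 and 8.60 in KD and at 8.52, 9.63 and 9.42 in SCR EBs. The KD array lowest at day 12, replicate 1, was also the lowest for Dcx (4.34), Elavl4 (5.25) and Ina (5.06), and without it the differences of Tubb3 (-0.93), Gap43 (-0.88) and Nefl (-0.53) at day 12 were under 2-fold. Without it 13 of the 37 genes were lower at day 12. Stmn2 was at 6.76, 7.82 and 7.46 in 12-day KD EBs, against 9.51, 9.49 and 9.52 in SCR and 9.74, 9.30 and 9.60 in WT EBs. At day 22 it was at 10.25, 10.32 and 10.21 in KD and at 10.18, 10.65 and 10.46 in SCR EBs. On this probe set KD EBs had the lowest Stmn2 of the 3 lines at day 12, and at day 22 they were within the SCR range. A second Stmn2 probe set turned the direction against WT, with a late KD minus WT of 0.51 log2 where the one used here gave -0.86, and it was at -0.84 in KD minus SCR.

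From day 12 to day 22, 24 of the 37 genes rose in KD EBs and 0 fell (9.64% and 1.99% of all genes), and 21 rose in SCR EBs and 0 fell (5.30% and 1.62%). In WT EBs 1 rose and 4 fell (1.74% and 3.57%). The structural genes rose in 15 of 16 cases in KD EBs (median 2.83 log2) and in 13 of 16 in SCR EBs (median 1.92), the progenitor genes in 5 of 15 (median 0.53) and 4 of 15 (median 0.31). Mapt rose by 4.16, Snap25, of the synaptic vesicle fusion machinery, by 4.0 and Rtn1, a reticulon of neurons, by 3.80 in KD EBs. The corresponding SCR changes were 4.16, 3.59 and 3.59.

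The difference between KD and SCR in this change, a contrast added after the values had been seen, was past the threshold upward for 10 genes and downward for 3 (7.06% and 2.34% of all genes). Neurod4 (2.07), Stmn2 (1.99), Pax6 (1.65), Nefm (1.56) and Ina (1.54) gained more in KD EBs, and Olig2 (-1.60), Ncam1 (-1.60) and Lhx2 (-1.04) gained less. Only 5 of the 10 upward calls remained without the third array of every group.

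**Figure D3:**
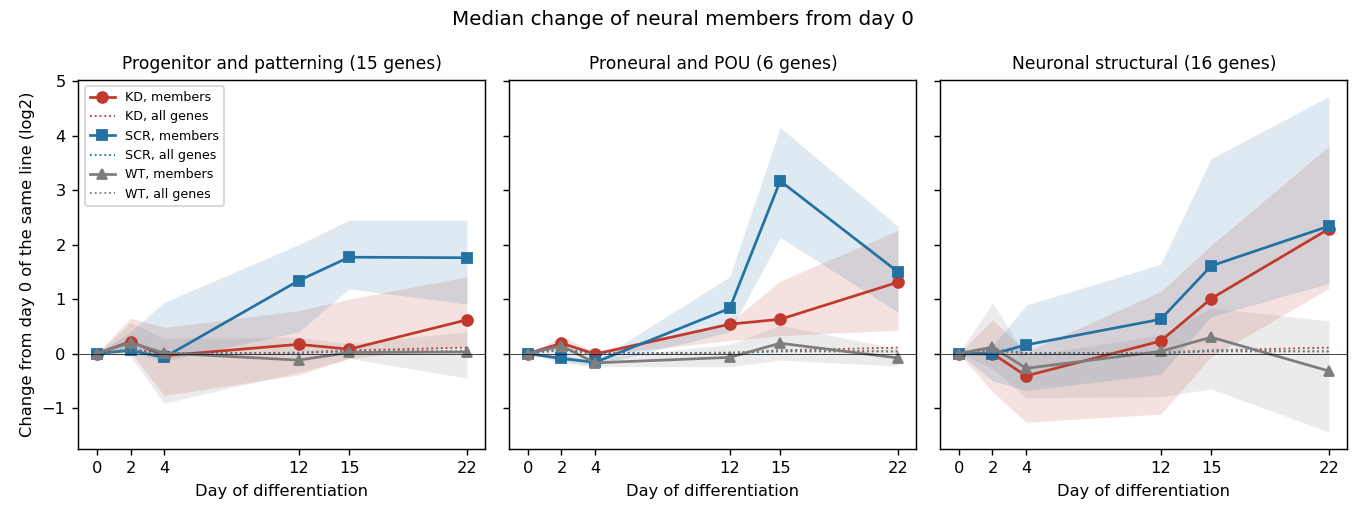
Median log2 change from day 0 of the same line (points and solid lines) with the interquartile range over genes (shading), for 15 progenitor and patterning, 6 proneural and POU and 16 neuronal structural genes, in KD (red), SCR (blue) and WT (grey), with dotted lines for all genes. At day 22 the median of the structural genes is 2.29 in KD and 2.34 in SCR EBs, with upper quartiles of 3.81 and 4.72. The median of the progenitor genes is 0.62 in KD and 1.76 in SCR EBs.

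The course within each line was followed from its own undifferentiated cells. At day 4, 2 genes were higher and 8 lower in KD EBs (12.7% and 7.98% of all genes), 6 and 4 in SCR EBs (9.35% and 5.01%) and 3 and 7 in WT EBs (12.7% and 9.08%). At day 12, 8 were higher and 8 lower in KD EBs (20.2% and 11.5% of all genes), 18 and 3 in SCR EBs (12.8% and 5.10%) and 3 and 4 in WT EBs (12.5% and 3.87%). At day 15 the counts were 14 and 4 in KD EBs (22.4% and 12.0%), 27 and 1 in SCR EBs (15.8% and 5.70%) and 7 and 4 in WT EBs (11.5% and 2.72%). SCR EBs thus had more neural genes above their undifferentiated level than the other lines from day 4 on. The structural genes had their highest mean at day 22 in 14 of 16 cases in KD and 12 of 16 in SCR EBs, and in none in WT EBs. The progenitor genes peaked at day 22 in 9 of 15 cases in KD EBs and 5 of 15 in SCR EBs, where 7 peaked at day 15. A peak is the highest mean however flat the course, and in the KD line En1 ranged over only 0.31 and Olig2 over 0.65 log2. The share of all genes that peaked on each day was not counted.

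Compared with undifferentiated cells of the same line, 22 of the 37 genes were higher and 1 lower in 22-day KD EBs (24.7% and 11.4% of all genes). In SCR EBs 28 were higher and 1 lower (17.3% and 5.60%), and in WT EBs 1 was higher and 8 lower (11.5% and 4.17%). Fabp7 had the largest rise in each line, by 8.85 log2 in KD, 9.30 in SCR and 5.15 in WT EBs, and it was the single riser in WT. Dcx rose by 5.24 in KD and 5.91 in SCR EBs, with 0.68 in WT EBs. Not all members started from a low level. Stmn2 was at 10.87 to 11.15 in undifferentiated KD, 11.56 to 11.78 in SCR and 11.18 to 11.45 in WT cells, above its 22-day level in each line. Neurod1 was at 7.88, 8.60 and 8.31 in undifferentiated KD, against 6.74, 7.33 and 6.77 in SCR and 7.93, 8.08 and 7.78 in WT cells, and Ina at 8.60 to 9.26 over all 9 arrays. Neurod1 was lower at day 22 than at day 0 in KD (-1.60) and in WT EBs (-3.09). These genes were thus well above the lower quartile of the arrays before any differentiation.

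Late SCR EBs were themselves above late WT EBs, which bears on the choice of control. Of the 37 genes 31 were higher in SCR than WT EBs and 0 lower, where 3.47% and 2.43% of all genes were. The median difference was 1.81 log2, and all 37 differences were above 0, beside a median of -0.03 over all genes. Pou3f3 was at 7.48 to 9.48 (median 8.98) in SCR, against 4.21 to 5.20 (median 4.70) in WT EBs, a difference of 3.98 log2 (SE 0.105, adjusted p = 3.31e-29, 15.8-fold). Fabp7 was at 10.40 to 12.79 (median 12.22) in SCR, against 7.17 to 9.41 (median 8.23) in WT EBs. It differed by 3.57 log2 (SE 0.181, adjusted p = 4.21e-20). For both genes every late SCR array was above every WT array.

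The microtubule-associated Dcx of migrating neurons was at 5.81 to 10.11 (median 8.84) in late SCR, against 3.92 to 5.85 (median 4.43) in WT EBs, which met only where 12-day SCR and 15-day WT arrays are set side by side (3.54 log2, SE 0.166, adjusted p = 3.46e-21). Gap43, a growth cone protein, was at 7.92 to 10.53 (median 9.11) in SCR, against 5.0 to 6.58 (median 5.91) in WT EBs (3.26 log2, SE 0.169, adjusted p = 9.01e-20). The dendritic Map2 was at 7.19 to 10.59 (median 9.48) in SCR, against 4.87 to 6.75 (median 5.86) in WT EBs (3.25 log2, SE 0.127, adjusted p = 1.11e-23). Gap43 and Map2 did not overlap between the lines. When probe sets were averaged Dcx was at 1.79 and Map2 at 2.05.

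Elavl4 was at 7.96 to 10.04 (median 9.58) in late SCR, against 5.50 to 6.54 (median 5.78) in WT EBs, and its difference was 3.18 log2 (SE 0.156, adjusted p = 1.5e-20). Sox1 was at 6.28 to 7.55 (median 7.26) in SCR, against 3.68 to 4.82 (median 4.31) in WT EBs (2.95 log2, SE 0.165, adjusted p = 1.1e-18). Snap25 was at 3.66 to 8.07 (median 6.0) in SCR, against 2.73 to 3.41 (median 3.25) in WT EBs (2.78 log2, SE 0.118, adjusted p = 1.51e-22). All 3 were apart between SCR and WT arrays, and Snap25 was at 1.72 when its probe sets were averaged. Syt1 (1.80) and Elavl3 (1.42) were among the other genes higher in SCR EBs. The genes that were not called were En1, Nes, Dll1, Lmx1b, Stmn2 and Nefm. For Stmn2 this depended on the probe set, since the second was at 1.35 log2 and the one used here at 0.39.

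By day, the genes higher in SCR than WT EBs numbered 22 at day 12 (1.41% of all genes), 31 at day 15 (4.40%) and 31 at day 22 (6.71%), with 0 lower on each of these days (3.01%, 3.36% and 2.52%). At day 22 all 16 structural genes were higher (median 3.35 log2), along with 10 of 15 progenitor genes (median 1.44) and 5 of 6 proneural and POU factors (median 2.15).

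By the median of the 37 genes late KD EBs stood between the control lines, though not for every gene. Sox3, Dll1, Lmx1b and, on the probe set used here, Stmn2 were below both lines, and Nes, Nefm and Ncam1 above both. Over the late days 14 of the 37 genes were higher in KD than WT EBs and 0 lower, where 11.2% and 6.21% of all genes were, with a median of 0.79 log2. Structural genes made up 10 of the 14, led by Dcx (2.70), Map2 (2.47), Gap43 (2.42) and Ncam1 (2.08), and the progenitor genes among them were Fabp7 (2.05) and Emx2 (1.10). With each array centred on its median Emx2 (1.0) and Nefl (0.97) were no longer called, which left 12 genes. When probe sets were averaged Dcx was at 1.24 and Map2 at 1.38, and Syt1, at 0.76 against 1.18, lost its call. Higher in KD than WT EBs were 7 genes at day 12 (5.63% of all genes), 11 at day 15 (12.2%) and 26 at day 22 (15.9%). Lower were 2 at day 12 (Stmn2 and Mapt, 5.35%), 1 at day 15 (Stmn2, 8.75%) and 0 at day 22 (7.11%).

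At day 22, 15 of 16 structural genes were higher in KD than WT EBs (median 2.99 log2), as were 4 of 6 proneural and POU factors (median 1.88) and 7 of 15 progenitor genes (median 0.83). Dcx was at 8.81, 9.19 and 8.76 in 22-day KD, against 8.92, 10.11 and 9.71 in SCR and 4.43, 4.08 and 4.47 in WT EBs. Snap25 was at 7.18, 7.72 and 7.21 in KD, against 7.05, 8.07 and 7.83 in SCR and 3.29, 3.37 and 3.31 in WT EBs. For both genes the KD and SCR arrays overlapped and stood well above WT. Sox3 (-0.54) and Six3 (-0.30) were among the 4 genes whose 22-day difference from WT was below 0, and neither was called.

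At day 4 the neural genes differed between KD and SCR EBs in another way: 8 were lower and 1 higher in KD (6.15% and 5.67% of all genes), and it was SCR EBs that stood apart from the other lines. Against WT, KD EBs had 0 genes higher and 1 lower, Nefm (0.0993% and 0.305% of all genes), while SCR EBs had 8 higher and 1 lower (5.44% and 5.25%). Neurod1 was at 3.90, 2.97 and 3.34 in 4-day KD, against 6.52, 6.67 and 6.59 in SCR and 3.87, 3.88 and 3.96 in WT EBs. Its difference between KD and SCR was -3.19 log2 (SE 0.181, adjusted p = 1.92e-18). Compared with undifferentiated cells Neurod1 had fallen by 4.86 log2 in KD and by 4.03 in WT EBs, with -0.35, not called, in SCR EBs.

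Pax6 was at 3.10, 3.35 and 3.33 in 4-day KD, against 6.07, 6.24 and 6.07 in SCR and 3.66, 3.34 and 3.06 in WT EBs (KD minus SCR -2.87 log2, SE 0.163, adjusted p = 2.21e-18). The other Pax6 probe sets were at -0.71 and 0.05, and the average of its probe sets at -1.18. Sox3 was at 5.27, 5.50 and 5.25 in KD, against 7.78, 8.30 and 8.06 in SCR and 5.07, 5.02 and 5.03 in WT EBs (-2.71 log2, SE 0.155, adjusted p = 2.78e-18). SCR EBs alone were high for both genes. In undifferentiated cells Pax6 had averaged 5.72 in SCR, 6.49 in KD and 5.40 in WT, and Sox3 6.29, 6.04 and 6.18. From there Pax6 had fallen in KD and WT EBs, and Sox3 had risen in SCR EBs. Averaged over their list, pluripotent cell genes were at 10.34 in 4-day SCR, against 8.30 in KD and 9.08 in WT EBs. The part of pluripotent cells in the 4-day neural differences was not tested.

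The light neurofilament chain Nefl was at 7.45, 7.54 and 7.58 in 4-day KD, against 9.77, 10.05 and 9.93 in SCR and 7.72, 7.69 and 7.73 in WT EBs (-2.39 log2, SE 0.222, adjusted p = 4.75e-12). Ina was at 6.37, 6.0 and 6.02 in KD, against 8.30, 8.50 and 8.36 in SCR and 6.61, 5.79 and 6.38 in WT EBs (-2.26 log2, SE 0.213, adjusted p = 7.85e-12). Ncam1 ran the other way, at 7.05, 7.36 and 7.17 in KD, against 5.02, 5.06 and 4.94 in SCR and 6.77, 7.04 and 7.01 in WT EBs (2.19 log2, SE 0.139, adjusted p = 7.03e-17). For all 3 genes SCR EBs stood apart, and none was called between KD and WT EBs. Nefm (-1.96), Map2 (-1.62) and Gap43 (-1.57) were the other genes lower in KD EBs, and Map2 was at -0.74 when its probe sets were averaged.

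**Figure D4:**
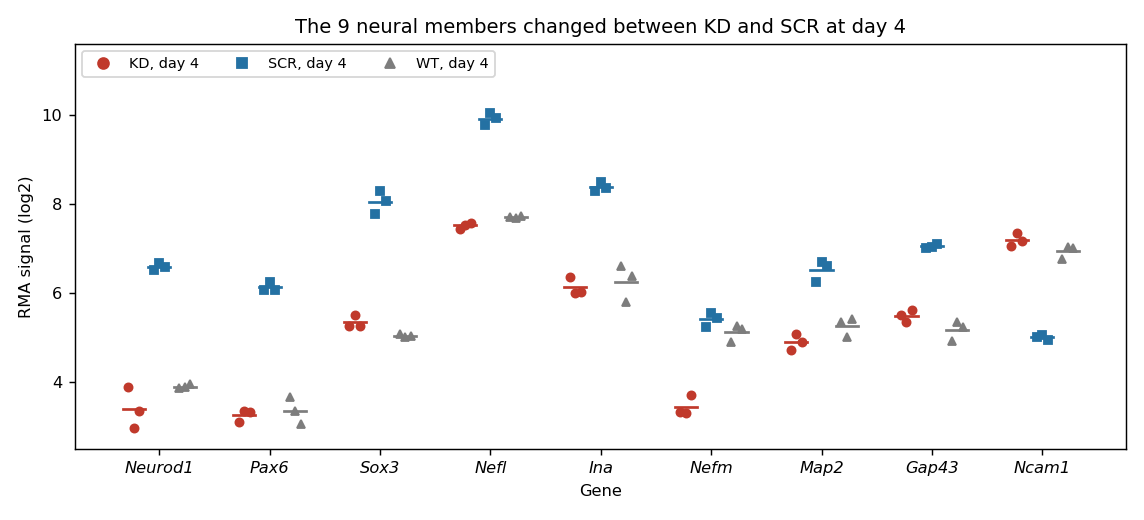
RMA signal (log2) on each array of 4-day KD (red circles), SCR (blue squares) and WT (grey triangles) EBs, with means as short lines, for the 9 neural genes called between KD and SCR at day 4. Between KD and WT EBs only Nefm was called, which was at 3.31 to 3.71 in KD and 4.89 to 5.27 in WT EBs.

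Some of the genes differed before that, and in the 2-day comparisons with SCR most of the called genes were lower in SCR EBs. In undifferentiated cells Neurod1 was higher in KD than SCR (1.32 log2) and Sox1 lower (-1.48), where 0.709% and 0.503% of all genes were higher and lower. Sox1 was at 3.84, 3.62 and 3.66 in KD, against 5.75, 4.62 and 5.19 in SCR and 5.79, 4.31 and 5.01 in WT cells. Against undifferentiated WT cells KD cells had 2 genes higher and 2 lower (0.333% and 1.18%), and SCR cells 0 and 0 (0.121% and 0.780%). At day 2 Sox3, Fabp7, Neurod1, Map2 and Gap43 were higher in KD than SCR EBs and Dll1 was lower (2.35% and 2.40% of all genes). Against 2-day WT EBs, SCR EBs had 1 gene higher and 7 lower (0.858% and 1.74%), and KD EBs 0 and 2 (0.0638% and 0.900%). The comparisons of a day share their arrays, so that a gene set apart in SCR EBs appears in both comparisons with SCR.

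Further neural genes, from lists outside the 39, were counted the same way. Over all genes 10.1% were higher and 4.88% lower in late KD than SCR EBs, and 3.47% higher and 2.43% lower in late SCR than WT EBs. Of 25 measured neural transcription factors of 27 listed, 1 was higher and 9 lower in late KD than SCR EBs (median -0.89 log2), and 14 were higher and 0 lower in SCR than WT EBs (median 1.07). Zic1, a neural plate and cerebellar factor, was at 3.76 in SCR minus WT and -1.45 in KD minus SCR. Otx2, of the epiblast and anterior brain, was at -3.11 in KD minus SCR and -2.72 in KD minus WT, and Insm1 at 2.99 in SCR minus WT. Of 13 measured synapse and transmitter genes of 20 listed, 2 were lower in late KD than SCR EBs and 0 higher (median -0.33), and 4 were higher in SCR than WT EBs (median 0.64). Gad1, which makes GABA, was at -1.61 in KD minus SCR and 3.57 in SCR minus WT, the glutamate transporter Slc17a6 at -1.12 and 3.22, and the glutamate receptor subunit Gria2 at -0.33, not called, and 1.81. Of 11 measured Notch pathway genes of 12 listed, 0 were called in either late comparison (median 0.33 and 0.07).

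Markers of other cells moved with the same comparisons, in which 10.1% of all genes were higher and 4.88% lower in late KD than SCR EBs. Between late SCR and WT EBs these shares were 3.47% and 2.43%. Averaged over the list, 6 of 6 mesenchyme genes measured 11.64 to 11.92 log2 on the late KD arrays, against 8.30 to 9.84 in SCR and 7.81 to 10.82 in WT EBs, and all 6 were higher in KD than SCR EBs. Of 5 cardiac muscle genes 4 were higher (8.82 to 10.40 in KD, against 4.99 to 9.04 in SCR and 5.11 to 8.71 in WT EBs), and of 5 liver and visceral endoderm genes 4 were higher (9.49 to 11.48 in KD, against 5.04 to 7.68 in SCR and 8.39 to 10.97 in WT EBs). All 5 liver and visceral endoderm genes were lower in late SCR than WT EBs. Pluripotent cell genes were lower in KD than SCR EBs in 6 of 7 cases (7.35 to 9.54 in KD, against 10.23 to 11.02 in SCR and 10.57 to 11.03 in WT EBs), and 0 of 7 were called between SCR and WT EBs. The part of these other cells in the neural differences was not tested.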

How the data were processed

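The authors made the values by RMA and deposited them as log2 signals of 30939 probe sets on 54 arrays. Per the labels' processing notes this was done in Affymetrix Expression Console and Partek 6.6, while the methods of the study name R packages. No raw files were read and nothing was normalized again. Symbols came from the platform annotation, in which 25596 probe sets carry 1 symbol. Groups came from the sample titles.

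In R 4.3.3, limma 3.58.1 fitted the means of 18 groups on all 54 arrays (lmFit, eBayes). The Benjamini-Hochberg adjustment ran over every probe set within a contrast, and counts over all genes use the representative probe sets. The pipeline was tested on simulated data. The number of arrays limits the precision.

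The members and lists were chosen with earlier results of these data known. All measured members are named. Values by array are given for the 8 largest called late changes between KD and SCR and between SCR and WT and the 6 largest at day 4, and other genes shown by array were chosen after their values were seen. From further lists up to 3 genes with the largest called late change are named. Alternatives were other normalizations, the brightest 60% of probe sets, means of probe sets, the compared arrays alone, a replicate block, trend and robust variances, array weights, a test against 1.2-fold, and each array left out.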

Additional observations from a re-analysis of the deposited data

Results flagged for a closer look

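The 3 lines differed in how the neural genes changed from day 0 to the late days, tested as a contrast between lines in limma. For KD minus SCR, 20 of 37 genes gained less in KD EBs and 1 gained more (6.89% and 11.3% of all genes). Among progenitor and patterning genes the differences were -2.63 log2 for Pax6, -2.14 for En2, -1.76 for Lhx2, -1.47 for Sox3, -1.41 for Six3, -1.37 for Fabp7, -1.17 for Hes5, -1.15 for Emx2, -1.14 for Olig2 and -1.04 for Pax3. Among proneural and POU factors they were -2.72 for Neurod1, -1.80 for Pou3f3 and -1.19 for Neurog2. Among structural genes they were -1.78 for Tubb3, -1.77 for Map2, -1.65 for Ina, -1.47 for Crmp1, -1.39 for Elavl4, -1.32 for Gap43 and -1.01 for Snap25, with 1.03 for Ncam1. Sox1, with the largest late difference between the lines, is not among them, since it was lower in KD cells at day 0 too.

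In the change from day 12 to day 22, KD minus SCR, a contrast added after the values had been seen, 10 genes gained more in KD EBs: Neurod4 (2.07), Stmn2 (1.99), Pax6 (1.65), Nefm (1.56), Ina (1.54), Emx2 (1.47), Sox1 (1.46), Nefl (1.25), Fabp7 (1.21) and Elavl4 (1.2). Olig2 (-1.60), Ncam1 (-1.60) and Lhx2 (-1.04) gained less. Calls for Fabp7, Elavl4 and Lhx2 depended on single arrays: without replicate 1 of the 12-day KD EBs the values were 0.81 for Fabp7 and 0.61 for Elavl4, and without replicate 2 of the 22-day SCR EBs the value was -0.85 for Lhx2, none of them past the threshold.

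Against WT, 16 genes gained more in KD EBs from day 0 to the late days (12.7% of all genes) and 25 from day 12 to day 22 (10.9%). In SCR against WT EBs 32 gained more from day 0 to the late days (4.28%) and 24 from day 12 to day 22 (6.89%). In none of these 4 contrasts did any of the 37 genes gain less at the threshold used.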

How the results depend on the processing

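With the brightest 60% of probe sets, among which 19 of the 37 genes are not, counts of genes lower in KD than SCR EBs were 10 at day 12, 14 at day 15, 1 at day 22 and 8 over the late days. On that filter 14 (day 22) and 8 (late) were higher in KD than WT EBs, 15 (day 22) and 15 (late) in SCR than WT EBs, and 6 had a larger change from day 12 to day 22 in KD than SCR EBs. With a test against 1.2-fold, 13 genes were lower in KD than SCR EBs at day 22 and 32 over the late days, and 24 were higher in late KD than WT EBs. Shares of all genes under these alternatives were not counted, and the shares given elsewhere belong to the 2-fold rule. The 10 genes with a larger change from day 12 to day 22 in KD than SCR EBs were 5 with the compared arrays alone and 5 without the third array of every group, an alternative chosen after seeing the data because that array often lay between the other two. With replicate number as a block, counts were 8, 17, 28 and 8 genes lower in KD than SCR EBs at days 4, 12, 15 and 22 and 19 over the late days, as without it, and the block changed no other count of those compared. Deviations from the group means of same-numbered KD and SCR arrays at days 4 to 22 correlated at -0.1488 to 0.3042. The correlation was over 0.1 in 6 of 12 pairs. Arrays were not paired in the main test, since the labels do not say what the number stands for. Leaving out single arrays gave 8 to 9 genes lower in KD than SCR EBs at day 4, 13 to 22 at day 12, 28 to 30 at day 15, 8 to 13 at day 22 and 17 to 21 over the late days. It gave 26 to 27 and 13 to 16 genes higher in KD than WT EBs at day 22 and over the late days, 30 to 32 and 31 to 31 in SCR than WT EBs, and 7 to 12 for the change from day 12 to day 22. Of 198 called changes of single genes, 171 passed under every alternative that could be run, 27 fell below the threshold in 1 or more and 0 reversed. Only 101 of the 198 could be run with the brightest 60% of probe sets, since the filter removes the other genes.

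The limits are those of the design. Each line is a single population, each group holds 3 arrays whose independence is not stated, and the scrambled and wild-type lines differed from each other by more neural genes than KD and SCR EBs did over the late days. Signals under the lower quartile, as for En1, Olig2, Neurog1 and Lmx1b on most arrays, give no exact size of a change. Pou3f2, Neurod4, Emx2, Snap25 and Neurog2 also had means over all arrays below it (3.19, 3.30, 3.54, 3.87 and 3.97). Other genes were below it in single groups. Among them, every array was below it for En2 in 12- and 15-day KD EBs and Pax6 in 4-day KD and WT EBs. The same held for Neurod1 in 4-day KD and WT EBs. Sox1 was below it on 2 of the 3 arrays of 12-day KD and on all 3 of 22-day WT EBs. The sizes given for all these genes are therefore not exact where 1 line was that dim.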

Other observations

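The counts below stand beside 10.1% of all genes higher and 4.88% lower in late KD than SCR EBs, and 3.47% higher and 2.43% lower in late SCR than WT EBs. Of 8 measured genes of REST, its corepressors and the Id proteins, which restrain neuronal genes or bHLH factors, 2 were lower and 0 higher in late KD than SCR EBs. These were the REST corepressor Rcor2 (-1.07 log2) and Id4 (-1.06), while Rest itself was at -0.81, under the 2-fold minimum. In late SCR minus WT EBs Id3 was at 1.2. Of 8 measured glial genes 3 were higher in late SCR than WT EBs, namely the astrocyte glutamate transporter Slc1a2 (2.63), the oligodendrocyte factor Olig1 (1.51) and the water channel Aqp4 (1.49). Olig1 was the single glial gene lower in late KD than SCR EBs, at -1.11.

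Of 7 measured neural crest and peripheral neuron genes 3 were higher and 1 lower in late SCR than WT EBs, among them Tfap2b (2.86), Tfap2a (1.13) and the peripheral neurofilament Prph (-1.30), and 0 were called between late KD and SCR EBs. Of 6 measured neuroendocrine genes 3 were higher in late SCR than WT EBs, with the granins Chgb (3.12) and Scg3 (2.24) the largest. Gcg, the glucagon gene, was at 2.52 in late KD minus SCR EBs and at -0.05, not called, in SCR minus WT EBs.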
